A study of Mus musculus with 36 samples.

Results

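The divergence of the heart's chambers between early and late embryonic days was examined in C57BL/6 mouse embryos on Affymetrix arrays. For each gene, the change from E12.5 and E13.5 (embryonic days) to E16.5 and E18.5 was taken in atrium and in ventricle, and the ventricular change was subtracted from the atrial one. This difference of differences, the interaction of chamber and day, is positive where a gene gained in atrium relative to ventricle and negative where it gained in ventricle. Its 24 arrays, of 36 in the series, were those whose titles give one of the 4 days, with an A after the replicate number for atrium and none for ventricle. They form 4 groups of 6, early atrium, late atrium, early ventricle and late ventricle, each made of 3 arrays on each of 2 days. The ventricular samples held both ventricles together, the atrial ones the atrial chamber, and no mutation or treatment was named. The arrays titled E16.5 carry day 15.5 in their descriptions, and the day of the title was used. The labels do not say whether replicates came from separate embryos or litters, and the p-values therefore reflect variation among these samples, possibly technical.

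Atrial and ventricular myocardium arise from one heart tube and take on separate gene programmes. The atrium forms thin, secretory muscle with its own light chains and channels, whereas the ventricle thickens into compact muscle with a high oxidative capacity. Over the days examined septation is completed, the epicardium covers the heart and sends cells inward, the valves remodel, and macrophages and mast cells enter the tissue. Chamber identity is held by transcription factors such as Tbx5 and the COUP-TFs on the atrial side and Irx4 and Hey2 on the ventricular side.

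Some arrays stood apart in genes of other tissues or of the other chamber, and these bear on several results below. Irx4, a ventricular transcription factor, lay between 1612 and 1965 on the 12 ventricular arrays and between 14.3 and 49.2 on 9 of the 12 atrial arrays. The other 3 atrial arrays, array 2 of E12.5, array 2 of E16.5 and array 1 of E18.5, read 433.0, 355.6 and 491.6. Sftpc, a surfactant protein of lung epithelium, reached 1745, 5694 and 10949 on atrial array 3 of E13.5, E16.5 and E18.5, against at most 333.8 on any other of the 24 arrays. Alb, the albumin made by liver, was 6352 on atrial array 2 of E12.5 and 4237 on ventricular array 2 of E16.5, with the third highest array at 1235. Slc4a1, the anion exchanger of red cells, was 12391 and 9704 on atrial arrays 1 and 2 of E12.5, the 2 highest. Each result below was therefore also fitted without each of these sets of arrays, called here the Irx4, Sftpc, Alb and erythroid sets, a choice made after the data were seen. Fits without the erythroid set leave 1 atrial array at E12.5 and are less precise for every gene. They keep atrial array 2 of E16.5, although it read 6121 for Slc4a1, against 389.0 to 1551 on the other E16.5 arrays. That array also had the highest Alas2, a gene of the adult erythroid list, of the 24 arrays (14161.5). It was left out with the Irx4 set and not with the erythroid set. Fits without the Sftpc or the Irx4 set lack 1 array in each of 3 atrial groups, and those without the Alb set lack 2 arrays. A call lost in any of these fits can reflect the smaller groups as well as the values of the arrays left out, and these were not told apart. Sln, the atrial sarcolipin, separated the labelled chambers on all 24 arrays and was at 2190.0–10711 on early and 11282–15577 on late atrial arrays and at 26.3–567 and 11.1–1789 on ventricular ones. The 1789 is ventricular array 1 of E18.5, against 11.1 to 254.0 on the other late ventricular arrays. That array also had the highest late ventricular Myl7 (9135) and Mybphl (298.1). As a mean over 19 atrial genes of log2 values centred on the 24 arrays, it read -0.62, and the other late ventricular arrays -1.37 to -1.04. Without it 1000 probe sets were called against 1130 with it, and 11 of the 88 called genes named below lost their call. Intensities below 171.8, the level a probe set had to pass on at least 3 arrays, may lie near background, as the files used here hold no detection call.

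**Figure D1:**
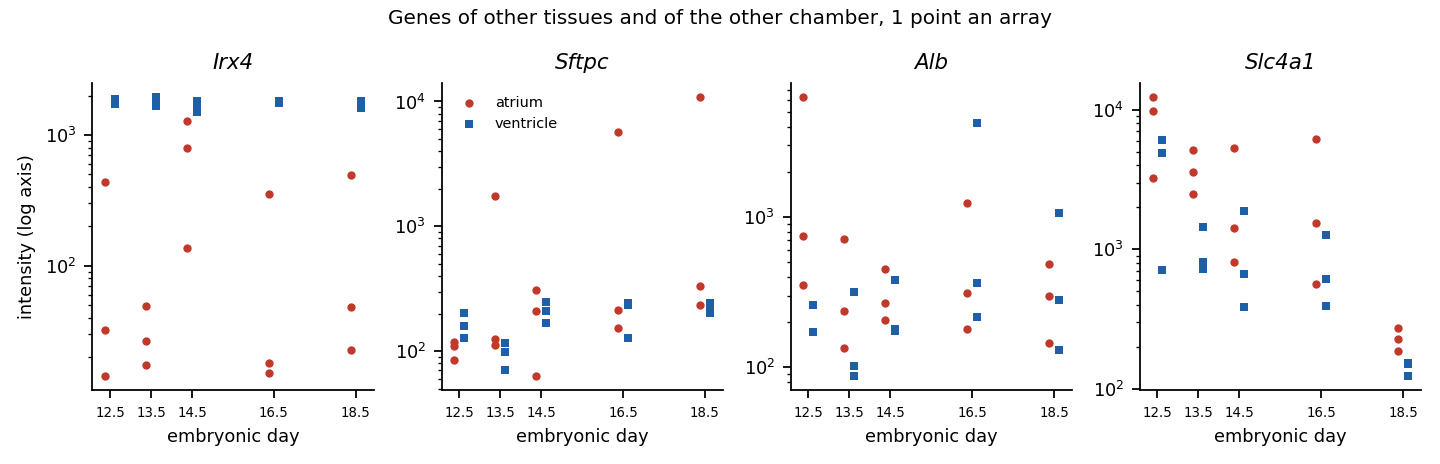
Intensity on a log axis (vertical) against embryonic day (horizontal) for Irx4, Sftpc, Alb and Slc4a1, with 1 red circle for each atrial array and 1 blue square for each ventricular array. Atrial arrays with Irx4 at 355.6 to 491.6, the 3 atrial arrays with Sftpc at 1745 to 10949, the 2 arrays with Alb at 4237 and 6352 and the 2 atrial E12.5 arrays with Slc4a1 at 9704 and 12391 stand apart from the other arrays of those days.

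The chambers' changes over the days differed for 1130 of 27256 probe sets (4.15%), of which 803 were positive (2.95%) and 327 negative (1.2%), by limma's moderated statistic with Benjamini-Hochberg adjustment at 0.05. At an unadjusted p below 0.05, 12.4% of all genes were positive and 8.16% negative. At least 2-fold differences were seen for 211 of the positive and 53 of the negative probe sets. With 1 probe set for each of 12983 genes, 658 genes were called (5.07%), 507 positive (3.91%) and 151 negative (1.16%), and the median interaction over all genes was -0.0004 (log2). The balance between directions moved with the centring of the arrays: 71.1% of the called probe sets were positive as deposited and 84.8% when each array was centred on its median. The count was 720 without ventricular array 2 of E13.5 and 1903 without atrial array 3 of E12.5. It was 688 without the Sftpc set and 494 without the erythroid set.

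More of the called genes had a change past the threshold in ventricle than in atrium. Among the 507 positive genes, 352 fell in the ventricle over the days and 4 rose there, while 217 rose in the atrium and 29 fell. Of all genes tested, 18.6% fell and 15.1% rose in ventricle, and 12.3% fell and 13.9% rose in atrium. Both chambers moved in opposite directions, each past the threshold, in 67 of the 507. The median ventricular change was -0.40 and the median atrial change 0.19 on the log2 scale, and the ventricular change was the larger of the pair in 328. By point estimates, a lead of the atrium grew in 248 of these genes, a lead of the ventricle turned into one of the atrium in 219, and a lead of the ventricle shrank in 40. Among the 151 negative genes, 109 rose in the ventricle and 49 fell in the atrium, with both in 10, and the ventricular change was the larger in 107. A ventricular lead grew in 50 of these genes, an atrial lead turned into a ventricular one in 89, and an atrial lead shrank in 12.

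**Figure D2:**
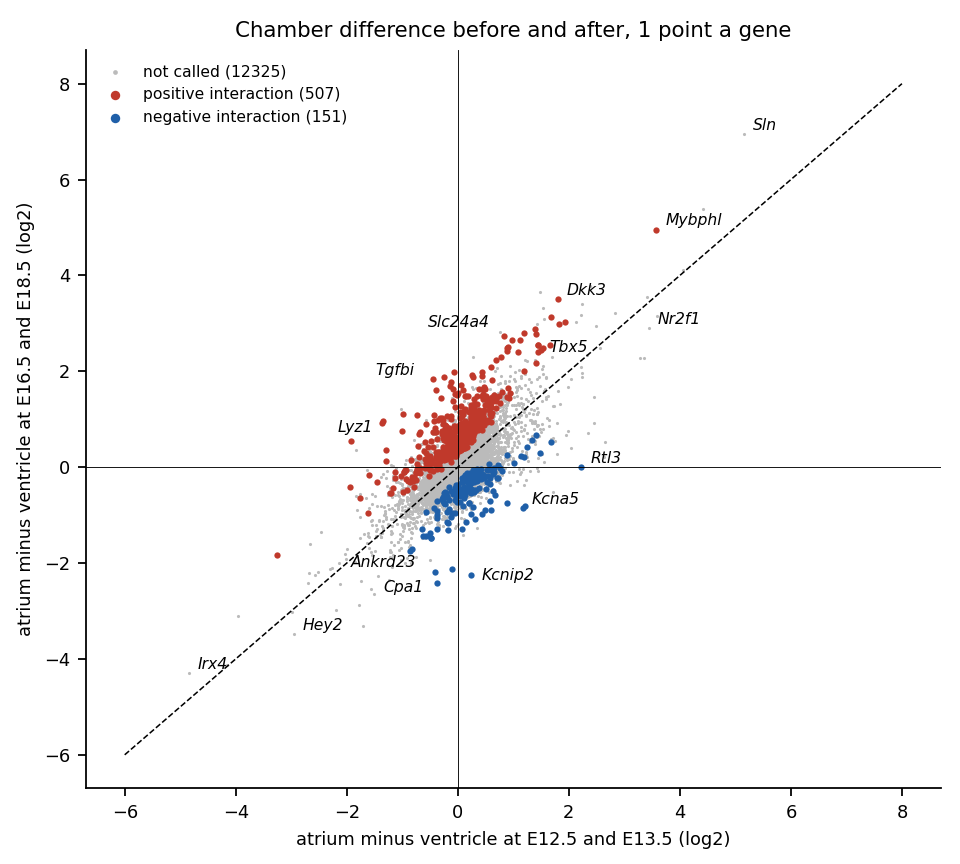
Atrium minus ventricle (log2) at E16.5 and E18.5 (vertical) against the same at E12.5 and E13.5 (horizontal), 1 point a gene for 12983 genes, with the dashed line where both are equal. Red points are the 507 genes with a positive interaction, above the line, and blue points the 151 with a negative one, below it; chamber markers such as Irx4, Hey2, Sln and Nr2f1 lie far from 0 on both axes without a call for the probe set shown.

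Of 19 atrial chamber genes tested, 8 had a positive interaction (3.91% of all genes did), 1 had a negative one (1.16%), and the list's median was 0.73 against -0.0004 over all genes. The shares of 3.91% and 1.16% apply to every list count below. The count of 8 became 3, 6, 4 and 2 without the Sftpc, Irx4, Alb and erythroid sets, the order used for such counts throughout. It was 4 without ventricular array 1 of E12.5 and 8 without ventricular array 1 of E18.5. Of the same 19 genes, 16 were already higher in atrium on the early days (11.4% of all genes) and 18 on the late days (19%). The promoters of 2 of these genes, Bmp10 and Mybphl, are shown because they hold a match to AGATAA, the core bound by GATA factors, which are cardiac activators; capitals mark the matches on either strand. The windows run from 250 bases before to 50 after the RefSeq start on GRCm38.p6, Bmp10 at chr6:87428744-87429043 and Mybphl at chr3:108364661-108364960, both on the plus strand.
Bmp10: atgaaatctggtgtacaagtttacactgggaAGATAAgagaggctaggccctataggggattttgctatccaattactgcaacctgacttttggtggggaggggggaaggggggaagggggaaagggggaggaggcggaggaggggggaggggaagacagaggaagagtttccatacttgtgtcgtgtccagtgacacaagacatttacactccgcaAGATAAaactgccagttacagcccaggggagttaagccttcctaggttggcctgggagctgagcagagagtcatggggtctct
Mybphl: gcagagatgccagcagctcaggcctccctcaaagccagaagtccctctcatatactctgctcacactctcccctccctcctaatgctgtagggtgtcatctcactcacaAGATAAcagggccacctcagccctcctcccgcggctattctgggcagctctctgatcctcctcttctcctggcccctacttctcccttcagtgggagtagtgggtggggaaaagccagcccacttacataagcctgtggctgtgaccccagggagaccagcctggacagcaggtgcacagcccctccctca

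Bmp10 is a BMP ligand of the embryonic heart that acts on endothelium and trabecular muscle. Its intensity was 376–1264 (median 739.9) on the early and 1316–2537 (median 2059.6) on the late atrial arrays, and 390.3–856 (median 599) and 400.4–635 (median 528) on the ventricular ones. Early atrium and early ventricle overlapped, whereas every late atrial array lay above every other array. Bmp10 rose in the atrium 2.6-fold, and the interaction was 1.61 ± 0.38 SE, adjusted p = 0.011 (log2, n = 6 arrays a group). Without the erythroid set its adjusted p was 0.11.

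Dkk3 encodes a secreted protein of the Dickkopf family. It read 2128–3656 (median 3244) early and 3332–4900.3 (median 4321) late in atrium against 489–1502 (median 778) early and 285–491 (median 334) late in ventricle. The chambers did not overlap on either pair of days. The gap went from 3.48-fold to 11.4-fold (interaction 1.71 ± 0.26 SE, adjusted p = 0.00016), and the part past the threshold was the ventricular fall of 2.4-fold. This call held in all 24 fits that left out 1 array and without each of the 4 sets.

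Mybphl, a myosin-binding protein of atrial muscle, was at 2096–3893 and 3735–5798 in atrium and at 119–493 and 86.7–298 in ventricle, early and late in each case. Its chambers never overlapped, and its interaction was 1.38 ± 0.37 SE, adjusted p = 0.029. Gja5, connexin 40 of atrial and Purkinje cells, was at 313–849.9 (median 732) and 552–894 (median 738) in atrium and fell from 249–438 (median 309.5) to 35–211 (median 135) in ventricle. Its early groups overlapped and its late groups did not (interaction 1.59 ± 0.43 SE, adjusted p = 0.028). Kcnj3, a subunit of the acetylcholine-gated potassium channel of atrial muscle, rose 1.94-fold in the atrium, from 622–1298 (median 882) to 1052–2233 (median 1866), and was at 194–297 and 230.1–315 in ventricle. Chambers were apart on both pairs of days, and the interaction was 0.88 ± 0.25 SE, adjusted p = 0.04. Myl7, the atrial regulatory light chain, lay near the top of the intensity range, at 13072–15465 and 10778–16821 in atrium, and fell in ventricle from 8273–15526 (median 9461) to 4226–9135 (median 5547) (interaction 0.73 ± 0.21 SE, adjusted p = 0.047). These 4 calls were lost in 10 of 24 (Mybphl), 7 of 24 (Gja5), 15 of 24 (Kcnj3) and 18 of 24 (Myl7) fits that left out 1 array, with adjusted p up to 0.066, 0.066, 0.09 and 0.099.

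Several of the best known atrial genes were not called by their probe set of highest mean. Sln had the widest chamber difference of the named genes, 5.15 early and 6.94 late on the log2 scale, with an interaction of 1.79 ± 0.99 SE, adjusted p = 0.34. Without ventricular array 1 of E18.5 it was 2.64 (adjusted p = 0.064). The second Sln probe set, far dimmer at 9.9 to 473.4, was called, at 1.81 ± 0.45 SE, adjusted p = 0.018. Nr2f1 and Nr2f2, the COUP transcription factors of atrial identity, were higher in atrium throughout, with interactions of -0.54 ± 0.29 SE, adjusted p = 0.32 and -0.30 ± 0.15 SE, adjusted p = 0.28. Nppa, the atrial natriuretic peptide, was at 13234–15804 and 10815–17476 in atrium and 11450.4–16409 and 9429.7–11905 in ventricle, near the top of the scale, and had 0.25 ± 0.19 SE, adjusted p = 0.5. Myl4, the atrial essential light chain, fell in ventricle (log2 change -0.49 ± 0.10), with -0.09 ± 0.10 in atrium, and its interaction was 0.40 ± 0.15 SE, adjusted p = 0.12. A second Myl4 probe set, at 203.3 to 1089, was called, with an interaction of 1.31 ± 0.26 SE, adjusted p = 0.0022. Nppb, the brain natriuretic peptide, had 0.39 ± 0.26 SE, adjusted p = 0.46.

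Of 17 ventricular genes tested, 2 had a positive interaction (3.91% of all genes), and the median was 0.15. No negative call was made by limma (1 at an unadjusted p below 0.05). Of the 17, 15 were already higher in ventricle on the early days, against 12.5% of all genes. Cited1, a transcriptional co-activator, fell in ventricle from 3993–8375 (median 5989.5) to 2954–3901 (median 3272) and read 1574–3068 and 1977–2653 in atrium. The ventricle stayed above the atrium on every array, but the gap narrowed (interaction 0.68 ± 0.20 SE, adjusted p = 0.043). Wnt11, a secreted Wnt, fell in ventricle from 367–581 (median 446) to 252–348 (median 298) and was at 535–816 and 564–779 in atrium, where it was higher on both pairs of days (interaction 0.61 ± 0.17 SE, adjusted p = 0.034). Both calls were lost without the Sftpc set (adjusted p = 0.099 and 0.17) and without the erythroid set (0.16 and 0.13), and in 19 of 24 and 12 of 24 fits that left out 1 array.

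The core ventricular markers were not called. Irx4 was -4.85 early and -4.30 late (log2, atrium minus ventricle), with an interaction of 0.55 ± 0.82 SE, adjusted p = 0.78. Hey2, a transcriptional repressor of compact ventricle, had -0.54 ± 0.55 SE, adjusted p = 0.66, with 1263–2793 early and 1928–2966 late in ventricle against 157–503 and 100.3–701 in atrium. Myl2, the ventricular regulatory light chain, spread widely over the atrial arrays, from 1149.8–12701 early and from 594–16782 late, and its interaction was -0.32 ± 0.77 SE, adjusted p = 0.88. Myh7, the slow myosin heavy chain, spread in the same way, from 969.8–10867 and 1776–13378 in atrium (interaction 1.07 ± 0.57 SE, adjusted p = 0.32). Without the Irx4 set none of these 4 was called either (adjusted p = 1, 0.098, 0.14 and 0.35).

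Channel genes were called in both directions. Of 19 potassium and sodium channels and connexins, 3 had a negative (1.16% of all genes) and 3 a positive interaction (3.91%). The list median was 0.04. Without the 4 sets 1, 4, 0 and 0 were positive and 2, 3, 3 and 2 negative, and none was positive without ventricular array 2 of E13.5. Kcnip2, which encodes KChIP2, the subunit that brings the transient outward potassium current to the surface, had the largest negative interaction of all named genes. It was at 23.8–87.1 (median 44.4) in early ventricle and 435–2143 (median 1452) in late ventricle, and at 25.8–132 (median 52.5) and 52.3–753 (median 280.2) in atrium. It rose in both chambers. As all early values lie below 171.8, no fold is given, and the size of the interaction is uncertain. The late ventricle and late atrium overlapped only through the highest atrial array. The interaction was -2.49 ± 0.58 SE, adjusted p = 0.01, and the adjusted p was 0.067 without the Sftpc set, 0.061 without the erythroid set and 0.0014 without the Irx4 set.

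Kcna5, which encodes the channel Kv1.5 of the ultrarapid delayed rectifier current, crossed over. On the atrial arrays it fell from 406–1699.6 (median 878) to 278–686 (median 500.2), and on the ventricular ones it rose from 178–619.9 (median 405) to 594–1024 (median 925). The chambers overlapped on both pairs of days, but the early mean was 2.25-fold higher in atrium and the late mean 1.81-fold higher in ventricle. Both changes passed the threshold, the interaction was -2.03 ± 0.30 SE, adjusted p = 0.00012, and the call held in all 24 fits without 1 array and without each of the 4 sets. Kcna5 was the 1 member of the atrial list called negative.

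Of 20 genes of the sarcoplasmic reticulum and calcium handling, 1 was negative and the median was -0.08, with no positive call by limma (3 at an unadjusted p below 0.05). That gene was Cacna1g, the T-type calcium channel Cav3.1, which rose in ventricle from 36.2–370.5 (median 105) to 298–628 (median 444) and read 119–256 and 188–342 in atrium. The interaction was -1.50 ± 0.36 SE, adjusted p = 0.012, and it was not called without the Sftpc set (adjusted p = 0.081) or the erythroid set (0.1).

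Ankrd23 encodes a muscle ankyrin-repeat protein that binds titin. It rose in ventricle from 38.7–84.7 (median 42.9) to 90–456 (median 332), and stood at 15.2–47.9 (median 34.5) and 32.2–106 (median 39) in atrium. Every late ventricular array was above every early one, and only the highest late atrial array overlapped them (interaction -1.77 ± 0.34 SE, adjusted p = 0.0021); the call held without each of the 4 sets. Its promoter, on the minus strand at chr1:36536507-36536806 of GRCm38.p6, holds a GATA match too, in capitals as TTATCT.
Ankrd23: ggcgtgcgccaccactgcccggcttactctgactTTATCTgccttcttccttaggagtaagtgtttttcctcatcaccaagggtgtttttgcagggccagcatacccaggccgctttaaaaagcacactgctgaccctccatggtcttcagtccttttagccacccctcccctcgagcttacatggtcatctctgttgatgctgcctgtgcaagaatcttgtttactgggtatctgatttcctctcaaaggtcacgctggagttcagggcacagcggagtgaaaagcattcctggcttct

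Plin5, a coat protein of lipid droplets in oxidative tissue, rose in ventricle from 41.5–93.3 to 109–403 and was at 41–149 and 62.5–162 in atrium (interaction -1.30 ± 0.35 SE, adjusted p = 0.029); the call was lost without the Sftpc set (0.11) and the erythroid set (0.24), and in 7 of 24 fits that left out 1 array. Rtl3, a gene derived from a retrotransposon, rose in ventricle from 29.4–266 (median 43.5) to 388–698 (median 543), while the atrium was at 201–501 (median 372) and 335–679 (median 569.5). An early atrial lead of 2.22 ± 0.29 was thereby levelled to 0.00 ± 0.29, with an interaction of -2.22 ± 0.40 SE, adjusted p = 0.0012 that held without each set. Tuba4a, an alpha-tubulin, rose in ventricle from 2022–2388 to 3129–6442 without overlap and read 1759–6385 and 1717–3223 in atrium (interaction -1.41 ± 0.25 SE, adjusted p = 0.00089). Cpa1, a carboxypeptidase known from pancreas, and Steap4, a metalloreductase, also rose in ventricle, to 302–529 and 90–286, with interactions of -2.04 ± 0.44 and -2.02 ± 0.49.

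Some negative calls were lost without the 2 arrays of the erythroid set, a fit that leaves 1 atrial array at E12.5. Rhd, the Rh antigen of red cells, was at 351–6874 on the early atrial arrays and lay at 117–463 late, and Reln, the secreted glycoprotein reelin, was at 468–3916 early and 149–444 late. Their interactions were -2.02 ± 0.56 SE, adjusted p = 0.034 and -1.64 ± 0.44 SE, adjusted p = 0.029, and without the erythroid set their adjusted p was 0.3 and 0.29. Tmem270, Gm15050, Bad, a pro-apoptotic BCL2 family member, and Adgrg1, an adhesion receptor, complete the 15 largest negative genes, with interactions of -1.40 ± 0.37, -1.38 ± 0.40, -1.38 ± 0.40 and -1.29 ± 0.31. Of these 4, only Gm15050 was called without the erythroid set (adjusted p = 0.048), and it was lost in 16 of 24 fits that left out 1 array, as Bad was in 16 of 24 and Tmem270 in 4 of 24.

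**Figure D3:**
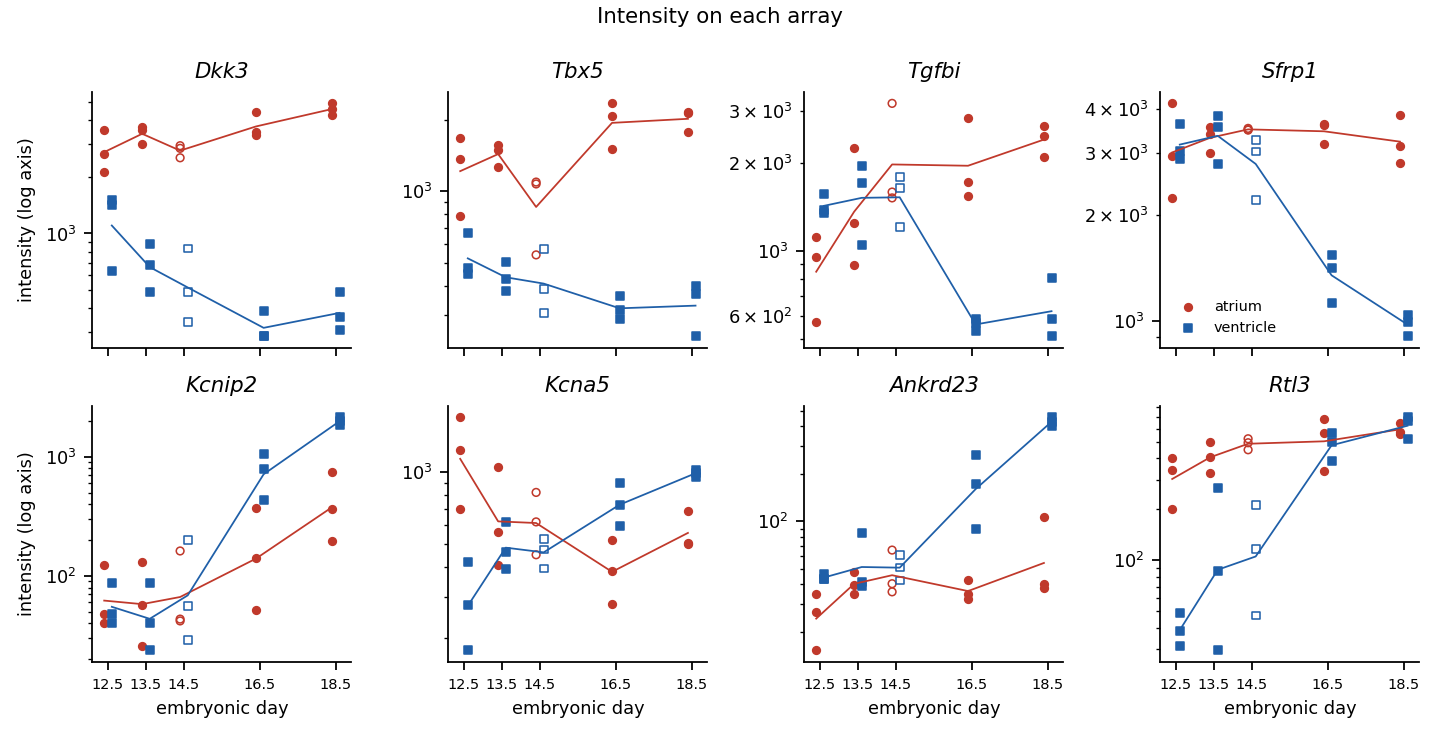
Intensity on each array on a log axis (vertical) against embryonic day (horizontal) for 8 genes, red circles for atrium and blue squares for ventricle, with lines through the geometric mean of the 3 arrays of a group; open symbols are E14.5, which enters no early or late group. Dkk3, Tgfbi and Sfrp1 fell in ventricle, Tbx5 and Kcna5 moved in opposite directions in the chambers, and Kcnip2, Ankrd23 and Rtl3 rose in ventricle.

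Among 29 cardiac transcription factors tested, 6 had a positive and 2 a negative interaction, with a median of -0.05 (5, 6, 6 and 4 positive and 2, 1, 1 and 1 negative without the 4 sets). The shares over all genes were 3.91% and 1.16%. Tbx5, the T-box factor that drives atrial and septal development, was at 784–1674 (median 1434) and 1507–2353 (median 2115) in atrium and at 378–667 (median 461) and 244–397 (median 339) in ventricle. It was higher in every atrial than in every ventricular array of the same days, rose in atrium and fell in ventricle, each past the threshold, and its lead went from 2.72-fold to 5.85-fold. The interaction was 1.11 ± 0.25 SE, adjusted p = 0.0079, with 0.0503 without the Sftpc set and 0.073 without the erythroid set.

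Gata5, a GATA factor of endocardium and epicardium, fell in both chambers and further in ventricle, from 199–489.7 (median 338) to 20.9–117 (median 55.9) there and from 473–608 (median 573) to 286–378 (median 316) in atrium. Late atrium and late ventricle did not overlap (interaction 1.55 ± 0.27 SE, adjusted p = 0.00069). A second Gata5 probe set had an interaction of 0.16 and was not called. The forkhead factors Foxc1 and Foxc2, of outflow tract and endocardial mesenchyme, fell in ventricle to 352–641 and 319.5–437 and stood at 1001–1412 and 941–1184 in late atrium. Their interactions were 0.82 ± 0.17 SE, adjusted p = 0.0047 and 0.84 ± 0.19 SE, adjusted p = 0.0069; Foxc1 had 0.053 without the erythroid set. Nfatc1, the calcineurin-dependent factor of valve endocardium, rose in atrium and fell in ventricle, with changes of 0.27 ± 0.10 and -0.35 ± 0.10 (interaction 0.62 ± 0.14 SE, adjusted p = 0.0067). The 5 tested Nfatc1 probe sets, 3 of them called, ranged from 0.05 to 0.82. Id2, an inhibitor of helix-loop-helix factors, fell in ventricle (interaction 0.77 ± 0.16 SE, adjusted p = 0.0037). Hey1, the Notch target of atrial muscle, went the other way: it fell in atrium from 823–1205 (median 956) to 605–811 (median 666) and was at 267–554 and 351–545 in ventricle. Its lead shrank from 2.65-fold to 1.59-fold (interaction -0.73 ± 0.16 SE, adjusted p = 0.0053). Tbx18, of epicardium and sinus horn, fell in atrium from 2195–3645 to 1294–1902 (interaction -0.61 ± 0.17 SE, adjusted p = 0.034), a call lost in 13 of 24 fits without 1 array and without the Irx4, Alb and erythroid sets (0.085, 0.11 and 0.11).

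Of 15 conduction system and sinus node genes, 1 was positive (Id2) and 2 negative (Cacna1g and Tbx18), with a median of -0.45; the negative count was 1, 1, 1 and 0 without the 4 sets. Isl1 and Shox2, transcription factors of the sinus node, fell in atrium, with log2 changes of -1.07 ± 0.37 and -1.17 ± 0.30, and their interactions were -1.0 ± 0.52 SE, adjusted p = 0.3 and -0.44 ± 0.43 SE, adjusted p = 0.64. Nkx2-5, the homeobox factor of all cardiac muscle, had 0.21 ± 0.11 SE, adjusted p = 0.34. Of 20 trabecular and Notch genes, 3 were positive (3.91% of all genes) and 1, Hey1, negative (1.16%), with a median of -0.05. Without the 4 sets 1, 3, 2 and 0 were positive, and over the fits without 1 array 1 to 4 were. Dll1, a Notch ligand, was among the positive genes at 0.46 ± 0.13 SE, adjusted p = 0.046, a call lost in 19 of 24 fits without 1 array.

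Of 32 sarcomere genes 2 were positive, Myl7 and Mybphl, a share near the 3.91% of all genes, with a median of 0.01, and neither was called without any of the 4 sets. Myom2, an M-band protein, rose in both chambers, by 2.58 ± 0.47 in atrium and 4.20 ± 0.47 in ventricle, with an interaction of -1.62 ± 0.66 SE, adjusted p = 0.17. Tnni1 and Tnni3, the slow skeletal and cardiac troponin I genes whose balance shifts before birth, had -0.12 ± 0.17 SE, adjusted p = 0.77 and -0.08 ± 0.15 SE, adjusted p = 0.82, and Myh6, the fast cardiac myosin, -0.39 ± 0.15 SE, adjusted p = 0.14. A second Myh6 probe set, at 952.9 to 6543, was called, at -0.92 ± 0.26 SE, adjusted p = 0.039. Of 11 natriuretic and stress genes 2 were positive, with a median of 0.19, and 1 was without each of the 4 sets. Npr3, the natriuretic peptide clearance receptor of endocardium, fell in ventricle from 2492–3488 (median 3109) to 1281–1900.2 (median 1666) and stood at 3694–4566 (median 4108) and 4013–5287 (median 4766) in atrium (interaction 1.07 ± 0.15 SE, adjusted p = 7.7e-05). No chamber overlap was seen on either pair of days. Fhl1, a LIM protein of muscle, rose in atrium (0.44 ± 0.08; interaction 0.41 ± 0.12 SE, adjusted p = 0.048) and lost its call in 18 of 24 fits without 1 array.

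Epicardial and mesothelial genes had a positive interaction in 8 of 19 cases (3.91% of all genes) and a negative one in 2 (1.16%), with a median of 0.74. The negative members were Aldh1a2 (-0.83) and Tbx18 (-0.61). Wt1 (-0.25) and Tcf21 (-0.01) were not called, and 14 of the 19 had a point estimate above 0. Of the 19, 16 were higher in atrium on the early days (11.4% of all genes) and 16 on the late days (19%). Of the list, 5 genes rose and 5 fell in atrium, and 2 rose and 9 fell in ventricle. Without the 4 sets the positive count was 3, 8, 6 and 1, and it lay between 5 and 10 over the fits without 1 array, lowest without ventricular array 2 of E13.5. In whole chambers, fewer cells of a type and less RNA per cell cannot be told apart.

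Krt19, a keratin of mesothelium and epicardium, was at 472–805 (median 609) and 663–1259 (median 1032) in atrium and fell from 334–1025 (median 839) to 178–326 (median 259) in ventricle. The early groups overlapped, and the late groups were fully apart. Both changes passed the threshold, the interaction was 2.12 ± 0.31 SE, adjusted p = 0.00011, and the call held without each of the 4 sets. Msln, mesothelin, rose in atrium from 109.5–674 (median 407) to 739–1924 (median 1231) and was at 123–375 and 167–377 in ventricle (interaction 1.67 ± 0.41 SE, adjusted p = 0.015; 0.046 without the Sftpc set and 0.19 without the erythroid set). Gpm6a, a membrane glycoprotein, rose in atrium to 1824–2337 against 264–455 in late ventricle (interaction 0.96 ± 0.24 SE, adjusted p = 0.019). Rspo1, a Wnt agonist of epicardium, fell in ventricle from 239–349.7 to 75.8–189 (interaction 0.86 ± 0.18 SE, adjusted p = 0.0056).

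The retinoic acid enzymes went opposite ways. Aldh1a2, the main retinoic acid synthase of embryonic epicardium, fell in atrium from 1957–2294 (median 1978) to 1326–1586 (median 1491) and rose in ventricle from 711–1013 (median 825) to 881–1229.8 (median 1151). Atrium stayed above ventricle on every array, with a gap of 2.38-fold early and 1.34-fold late (interaction -0.83 ± 0.17 SE, adjusted p = 0.0046), a call that held without each set. Aldh1a1, another enzyme of the step, was at 206–458 and 270.4–602 in atrium and fell in ventricle to 21.3–92.6 (interaction 1.46 ± 0.38 SE, adjusted p = 0.025; not called without the Sftpc, Alb or erythroid sets). Rarg, a retinoic acid receptor, rose in ventricle from 239–495 to 338–667 (interaction -1.13 ± 0.26 SE, adjusted p = 0.0083). The 12 retinoic acid genes tested held 1 positive and 2 negative calls, with a median of -0.24 (0, 1, 0 and 0 positive and 2, 2, 2 and 1 negative without the 4 sets).

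Endothelial genes were called positive in 8 of 26 cases (3.91% of all genes), with a median of 0.15. By limma none was negative (3 at an unadjusted p below 0.05), against 1.16% of all genes. Without the 4 sets 5, 8, 7 and 5 were positive and 0, 2, 0 and 1 negative. Plvap, the diaphragm protein of fenestrated endothelium, fell in ventricle from 1330.3–2142 (median 2063) to 784–1112 (median 991) and stood at 1796–3023 and 2406–3070.5 in atrium (interaction 1.14 ± 0.22 SE, adjusted p = 0.0022). Eng, endoglin, a co-receptor for BMP9 and BMP10, rose in atrium from 1122–3205 (median 2310.4) to 3601–5032 (median 4365) without overlap and was at 2209.9–3051 and 2194–3184 in ventricle (interaction 1.04 ± 0.18 SE, adjusted p = 0.00089). Emcn, endomucin, rose in atrium from 1619–2898 to 3081–4279 and read 2026–2501 in late ventricle (interaction 0.78 ± 0.16 SE, adjusted p = 0.003). The list thus held genes that rose in atrium and genes that fell in ventricle. Tmem100, a membrane protein induced by ALK1 signalling in endothelium, rose in atrium from 155–481 (median 255) to 427–1374 (median 1003) and was at 236–321 (median 275) and 184–339.8 (median 235) in ventricle. All late atrial arrays were above all ventricular arrays (interaction 1.91 ± 0.23 SE, adjusted p = 4.6e-06).

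Cushion and valve genes were positive in 3 of 25 cases with a median of 0.22, and the count was also 3 without each of the 4 sets. Over all genes 3.91% were positive. Smooth muscle genes were positive in 1 of 12, with a median of -0.35. By limma none was called negative, though 7 were negative at an unadjusted p below 0.05 (8.16% of all genes), and 1 was called negative without the Sftpc and without the Irx4 set. The positive gene, Cnn1, calponin 1, fell in both chambers, from 1888–3799.6 (median 3019.8) to 572–1074 (median 695) in ventricle and from 2462–3652 (median 3301) to 1451–2782 (median 2234) in atrium (interaction 1.37 ± 0.24 SE, adjusted p = 0.00087). Its early groups overlapped, and all late atrial arrays were above the late ventricular ones.

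The matrix genes that were called had positive interactions. For Ltbp1, Spon1 and Fn1 the fitted changes were below 0 in both chambers and lower in ventricle, at -0.39, -0.28 and -0.16 in atrium. Of 14 elastic fibre genes 6 were positive (3.91% of all genes), all 14 had a point estimate above 0, and the median was 0.55. Of 27 fibroblast and matrix genes 5 were positive, with a median of 0.29. By limma neither list held a negative call (none at an unadjusted p below 0.05 either). Without the 4 sets the elastic count was 3, 6, 5 and 1 and the fibroblast count 3, 5, 4 and 2. The elastic count was 2 without ventricular array 1 of E12.5. Fbln1, fibulin 1 of elastic and basement membrane matrix, was at 1460.1–3659 (median 3013) and 3152–4005 (median 3449) in atrium and at 2136–2467 (median 2319.6) and 1371–2135 (median 1739) in ventricle. It rose in the first and fell in the second, and the late groups did not overlap (interaction 0.77 ± 0.16 SE, adjusted p = 0.0038). Col5a2, a fibrillar collagen chain, did the same, to 5655–7559.5 in late atrium against 2626–3262 in late ventricle (interaction 0.74 ± 0.14 SE, adjusted p = 0.0018). Ccn2, the matrix protein once named connective tissue growth factor, rose in atrium from 1525–2987 to 3034–5823 and was at 2564–3873 and 2058–3821 in ventricle (interaction 0.96 ± 0.20 SE, adjusted p = 0.0045). Thbs3, a thrombospondin, rose in atrium from 32.5–239 to 299–609 without overlap (interaction 2.05 ± 0.42 SE, adjusted p = 0.0035). Emilin1 of elastic fibres, Ltbp1, which anchors latent TGF-beta, Mfap5 of microfibrils and Spon1 had 0.70 ± 0.17, 0.61 ± 0.18, 1.11 ± 0.33 and 0.51 ± 0.13. None of these 4 was called without the erythroid set, with adjusted p of 0.09, 0.21, 0.31 and 0.14.

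**Figure D4:**
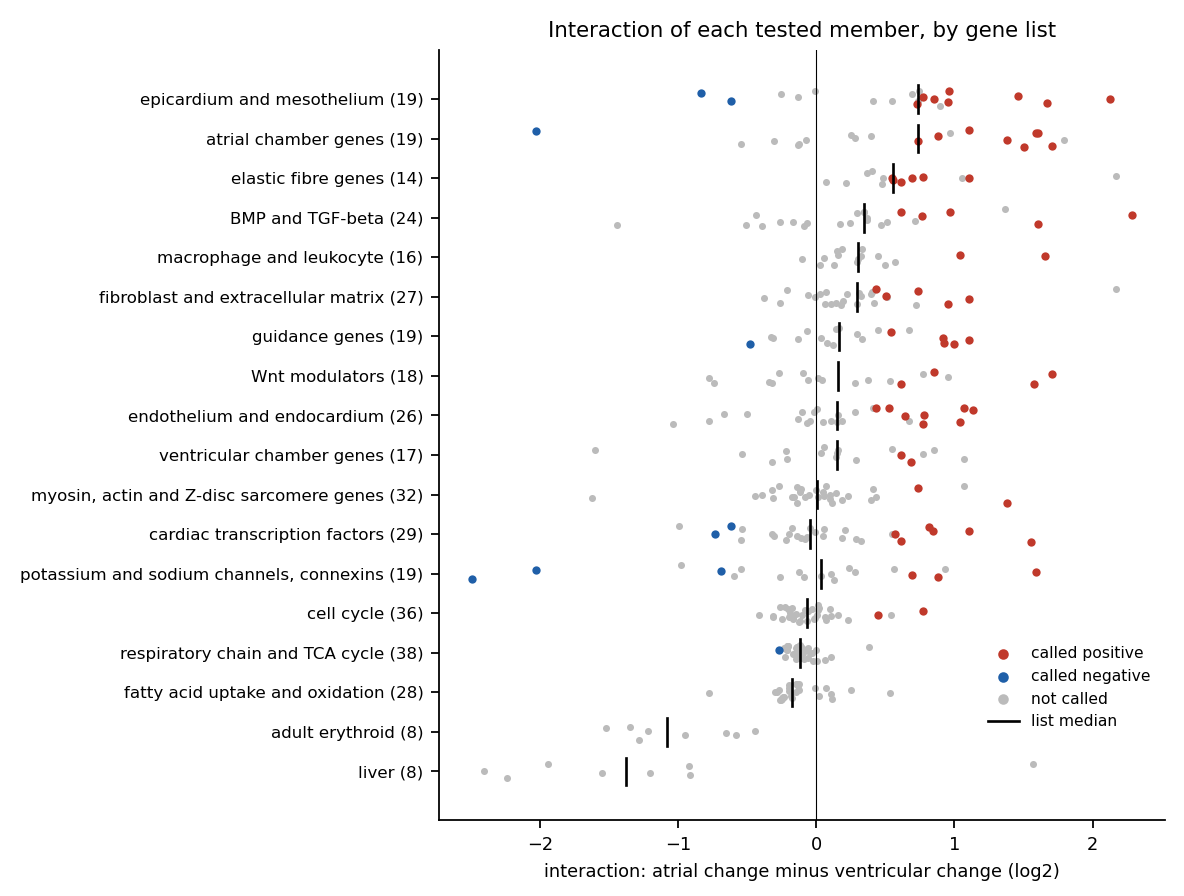
Interaction (log2, horizontal) of every tested member of 18 gene lists (vertical, number tested in brackets), red where called positive, blue where called negative and grey where not called, with a bar at the list median. The epicardial and atrial lists have medians of 0.74 and 0.73, metabolic lists sit close to 0 or just below it, and the erythroid and liver lists lie low without a call.

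Of 24 BMP and TGF-beta genes 5 were positive, with a median of 0.35, and the count was 4, 5, 5 and 3 without the 4 sets. The positive share over all genes was 3.91%. Tgfbi, a matrix protein induced by TGF-beta, rose in atrium from 574–2253 (median 1037) to 1535–2832 (median 2283) and fell in ventricle from 1051–1945 (median 1470.5) to 512–808 (median 576). Early groups overlapped, and late atrium was above late ventricle on every array, 3.58-fold on average. The interaction, 2.28 ± 0.29 SE, adjusted p = 1.4e-05, held without each set. Tgfb2, the TGF-beta ligand of cushions and outflow tract, fell in ventricle from 770.4–1153 (median 990.5) to 336–644 (median 495) and was at 633–979.7 and 746–1057 in atrium (interaction 0.97 ± 0.21 SE, adjusted p = 0.0056).

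Of 18 Wnt modulators 4 were positive (3.91% of all genes), with a median of 0.16; without the 4 sets 3, 4, 4 and 2 were. Sfrp1, a secreted Wnt antagonist, had the lowest adjusted p of the named genes. Its intensity was 2229.9–4149.7 (median 3202) and 2802–3845 (median 3386) in atrium and 2789–3814 (median 3299) and 906–1539.7 (median 1082) in ventricle. Of the 4 groups, only late ventricle stood apart, 2.81-fold lower than early ventricle (interaction 1.57 ± 0.17 SE, adjusted p = 9.8e-07).

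Guidance genes, which steer axons and vessels, were positive in 5 of 19 cases (3.91% of all genes) and negative in 1 (1.16%). Their median was 0.17. Without the 4 sets 3, 5, 5 and 3 were positive, and the negative call was lost without each. Slit2, a ligand of Robo receptors, fell in ventricle from 2772–4546 (median 4068) to 1177–2182 (median 1498) and was at 1481–2396 and 1226–2304 in atrium. The ventricle led by 1.8-fold on the early days. By point estimate that lead was gone on the late days, when atrium minus ventricle was 0.15 ± 0.11 on the log2 scale (interaction 1.0 ± 0.15 SE, adjusted p = 0.00016). Sema3a, a semaphorin that limits cardiac innervation, fell in ventricle from 558–1003 (median 738) to 271–429 (median 342) and read 604–796 and 569.5–782 in atrium (interaction 0.93 ± 0.15 SE, adjusted p = 0.00026). Epha4, an ephrin receptor, rose in atrium from 714–2046 to 1601–2670.0 against 261–348 and 230.3–339 in ventricle (interaction 1.11 ± 0.28 SE, adjusted p = 0.018; 0.06 without the Sftpc set and 0.19 without the erythroid set). Sema3c, a semaphorin of outflow tract, fell in ventricle, with a change of -0.57 ± 0.19 (interaction 0.92 ± 0.27 SE, adjusted p = 0.046), a call lost in 18 of 24 fits without 1 array. Gap43, a growth cone protein and the 1 positive member of 8 neural genes (median -0.11), fell in ventricle from 276–489.8 to 110.3–236 (interaction 1.15 ± 0.32 SE, adjusted p = 0.036; lost in 14 of 24 fits without 1 array and without the erythroid set).

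Of 20 insulin-like and imprinted growth genes 3 were positive (3.91% of all genes), with a median of 0.16. Among them were Igfbp2 and Igfbp5, which bind insulin-like growth factors. Igfbp2 fell in ventricle from 732–1911 (median 1702) to 126–546 (median 280.1) and in atrium from 1931–3435 (median 2909) to 991–2997 (median 1686). Chambers were apart on both pairs of days, by 1.88-fold early and 5.65-fold late (interaction 1.59 ± 0.30 SE, adjusted p = 0.0019). Igfbp5 fell in ventricle from 6934–8042 (median 7718) to 3997–5346 (median 5131), and was at 8249–10242 (median 9083) and 8352–10547 (median 9358) in atrium (interaction 0.68 ± 0.09 SE, adjusted p = 5.3e-05). Its 6 late ventricular arrays were the lowest of the 24. Cdkn1c, an imprinted inhibitor of cyclin-dependent kinases, fell in both chambers and further in ventricle (-0.72 ± 0.13 in atrium and -1.49 ± 0.13 in ventricle; interaction 0.77 ± 0.18 SE, adjusted p = 0.013); it was not called without the Sftpc set (0.069) or the erythroid set (0.088). Of 36 cell cycle genes 2 were positive, Cdkn1c and Cdk4 (interaction 0.45 ± 0.09 SE, adjusted p = 0.0047), a share near the 3.91% of all genes, and the median was -0.07. Of these 36, 26 fell in atrium (12.3% of all genes) and 18 in ventricle (18.6%). As a mean of log2 values centred on the 24 arrays, the cell cycle list was highest on atrial array 1 of E12.5, at 0.53. The other early atrial arrays read -0.27 to 0.15, and the part of that array in the count of 26 was not tested. Of 13 autonomic, endothelin and angiotensin receptor genes 1 was positive (median -0.06): Ednrb, the endothelin B receptor, which fell in ventricle from 3313–5436 (median 4669) to 1562–3323 (median 2392) and was at 2223–4433 (median 3976) and 4064–5281 (median 4834) in atrium (interaction 1.31 ± 0.21 SE, adjusted p = 0.00039). Late atrium lay above late ventricle without overlap.

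Calls among genes of macrophages and mast cells were positive, a direction called for 3.91% of all genes. The macrophage and leukocyte list held 2 positive calls among 16 genes, 15 point estimates above 0 and a median of 0.30; the mast cell list held 2 among 5 and a median of 0.82, and both lists kept 2 calls without each of the 4 sets. F13a1, coagulation factor XIII of resident macrophages, rose in atrium from 247–460.2 (median 361) to 575–912 (median 741) without overlap and was at 345–484 and 342–504 in ventricle (interaction 1.04 ± 0.20 SE, adjusted p = 0.0019). Lysozyme was read by probe sets for Lyz1 and Lyz2, near-identical genes whose signals cannot be told apart. The Lyz1 probe set rose in atrium from 283–673 (median 464) to 819.8–3796 (median 1076) and fell in ventricle from 1149.8–2457 (median 1927) to 522–1256 (median 838), the largest positive interaction of the named genes (2.48 ± 0.33 SE, adjusted p = 4.1e-05), and the Lyz2 probe set had 1.66 ± 0.28 SE, adjusted p = 0.00059. Early atrium was below early ventricle on every array, and the late groups overlapped. Ccl2, a monocyte chemokine, rose in atrium and fell in ventricle (interaction 1.83 ± 0.37 SE, adjusted p = 0.0035).

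Kit, the stem cell factor receptor of mast cells and some other lineages, rose in atrium from 507–879 (median 734) to 874–1674 (median 1278) and fell in ventricle from 637–886 (median 819) to 406–821 (median 619.6). Late atrium was above late ventricle on every array (interaction 1.12 ± 0.17 SE, adjusted p = 0.00014). Hdc, which makes histamine in mast cells, was low everywhere but rose in atrium from 10–36.1 (median 18.9) to 82.1–312 (median 232) and was at 48.5–108 (median 79.3) and 32.9–193 (median 105) in ventricle (interaction 2.27 ± 0.44 SE, adjusted p = 0.002). The other 3 mast cell genes tested were not called. Among them, Cma1 had an interaction of -0.06. Late medians were 384 in atrium and 382 in ventricle for Cma1, and 455 and 483 for Cpa3.

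Calls were also made among blood and immediate early genes. Hbb-y, an embryonic globin of primitive red cells, fell in both chambers, from 10965–18637 (median 13894) to 137–4355 (median 809) in ventricle and from 12681–15510.4 (median 14641) to 569–13536 (median 2553) in atrium. The ventricular fall was the larger (interaction 1.67 ± 0.36 SE, adjusted p = 0.006), and the 3 embryonic globin genes had a median of 1.40 with 1 call. Of 17 immediate early and heat shock genes 3 were positive, with a median of 0.20. Fos and Egr1, transcription factors induced within minutes of a stimulus, rose in atrium from 246–477 to 584–964 and from 429.6–918 to 1191–1633, without overlap, and were at 293–352 and 681–1164 in late ventricle (interaction 1.12 ± 0.18 SE, adjusted p = 0.00022 and 0.99 ± 0.21 SE, adjusted p = 0.0043). Klf2, a flow-responsive factor of endothelium, rose in atrium (interaction 0.66 ± 0.17 SE, adjusted p = 0.025), with 0.11 without the erythroid set.

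Other genes complete the 15 largest positive interactions. Nts, the neurotensin precursor, rose in atrium from 253–486 (median 269) to 762–2363 (median 1446) and read 418–1372 (median 857) and 466–1069 (median 791) in ventricle (interaction 2.32 ± 0.35 SE, adjusted p = 0.00016). Clu, the chaperone clusterin, rose in atrium from 1294–1554 (median 1355) to 1832–5491 (median 3634) and fell in ventricle from 2274–3097 (median 2929) to 1472–2217 (median 2024). Early atrium was below early ventricle on every array, an order that turned over in the late means (interaction 1.77 ± 0.23 SE, adjusted p = 3e-05). Slc24a4, a sodium-calcium-potassium exchanger, rose in atrium to 210.2–309 and fell in ventricle to 7.2–38.6, with the chambers apart on both pairs of days (interaction 1.91 ± 0.28 SE, adjusted p = 0.00014). Sall1, a zinc-finger factor, fell in ventricle from 335–715 to 111–308 and was at 335–669 and 425–776 in atrium (interaction 1.71 ± 0.23 SE, adjusted p = 5e-05). Kcnc2, a Kv3 potassium channel with low intensities, rose in atrium from 3.4–57.6 to 42.1–294 (interaction 2.10 ± 0.45 SE, adjusted p = 0.0055). Kcne4, a channel subunit, rose in atrium by 1.23 ± 0.31 (interaction 1.82 ± 0.44 SE, adjusted p = 0.013; 0.1 without the erythroid set). Zfp57, a zinc-finger protein that maintains imprints, and Dhx38, a splicing helicase, fell in ventricle (interaction 1.99 ± 0.52 SE, adjusted p = 0.025 and 1.75 ± 0.48 SE, adjusted p = 0.033), and both were lost without the Sftpc set (0.066 and 0.092), and in 3 of 24 and 13 of 24 fits without 1 array.

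The metabolic lists held 2 calls, with 5.07% of all genes called. The 28 genes of fatty acid uptake and oxidation held no call by limma (1 positive and 4 negative at an unadjusted p below 0.05), with a median of -0.18, although 18 rose in atrium (13.9% of all genes) and 23 in ventricle (15.1%); 0, 3, 0 and 1 were negative without the 4 sets. Among the 38 genes of the respiratory chain and citric acid cycle, 7 had risen in atrium (13.9% of all genes) and 19 in ventricle (15.1%). They held 1 negative call and a median of -0.12. That gene was Idh3b, a subunit of isocitrate dehydrogenase, at 5182–6037 early and 6514–7368 late in ventricle and 4526–5702 and 4327–5985 in atrium (interaction -0.27 ± 0.08 SE, adjusted p = 0.046), a call lost in 16 of 24 fits without 1 array and without the Sftpc, Alb and erythroid sets. A second Idh3b probe set had the opposite sign, at 0.20 (adjusted p = 0.32). The 23 glycolysis genes held 1 positive call, Pgam1 (interaction 0.33 ± 0.09 SE, adjusted p = 0.036; lost in 13 of 24 fits without 1 array and without each of the 4 sets), with a median of 0.05. By limma no gene was called among 10 for creatine kinase, adenylate kinase and myoglobin (median -0.05, with 2 negative at an unadjusted p below 0.05 and 2 called negative without the Irx4 set) or among 14 of the hypoxia response (median 0.10, with 3 positive at an unadjusted p below 0.05).

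Lists of other tissues were read beside these results. The 8 liver genes had a median of -1.38 and the 8 adult erythroid genes one of -1.08, without a call by limma (4 and 3 negative at an unadjusted p below 0.05). As the mean over its genes of log2 values centred on the 24 arrays, the erythroid list lay between 0.25 and 3.57 in early atrium, -1.01 and 0.88 in late atrium, -1.0 and 1.37 in early ventricle and -1.48 and -0.27 in late ventricle. The liver list lay between -0.63 and 3.21, -0.44 and 1.27, -1.50 and 0.36, and -1.22 and 2.37 in the same order. The late atrial 0.88 of the erythroid list was atrial array 2 of E16.5, and the other late atrial arrays read -1.01 to -0.09. The 9 lung and foregut genes, with a median of 0.05 and no call (limma, 0 at an unadjusted p below 0.05), lay between -0.71 and 1.32, -0.66 and 2.03, -0.68 and 0.06, and -0.45 and 0.15. Their highest arrays were atrial array 3 of E18.5 and of E16.5. Myh8, a perinatal myosin, was the 1 positive gene of 8 for somite and skeletal muscle (median -0.20), rising in atrium from 50.1–152 to 155–455 (interaction 1.45 ± 0.34 SE, adjusted p = 0.012; 0.097 without the erythroid set). By limma no gene was called, and none had an unadjusted p below 0.05, among 8 of cardiac nerve and neural crest (median -0.12), 4 of fat (0.24), 2 of thymus (-0.21) and 4 that are linked to sex (0.13). The part of RNA from other tissues in the calls was not tested beyond leaving out the arrays named above.

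Of the 105 genes named by rule, 88 were called, 68 positive and 20 negative. All 88 kept their sign without each of the 4 sets, and 45 were also called without each of them and in all 24 fits that left out 1 array. Among these 45 were Lyz1, Nts, Tgfbi, Hdc, Krt19, Kcna5, Rtl3, Ankrd23, Dkk3, Gata5, Hey1, Npr3, Eng, Plvap, Cnn1, Aldh1a2, Sfrp1, Slit2, Igfbp2, Igfbp5, Ednrb, Kit, Fos and Egr1. The count called was 59 without the Sftpc set, 78 without the Irx4 set, 72 without the Alb set and 47 without the erythroid set. With a block on the day and number of the arrays, 44 of the 88 were called. Of 43 called genes with more than 1 tested probe set, 37 had the same sign in all of them. A probe set that was not called was held by 23 of the 43, Gata5 among them. A probe set of opposite sign, none of them called, was read for Dhx38 (-0.21), Bad (0.14), Spon1 (-0.37), Fbln1 (-0.10), Idh3b (0.20) and Sfrp1 (-0.03).

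The days give 2 separate readings of the interaction, from arrays that do not overlap: from E12.5 to E18.5 and from E13.5 to E16.5. The first called 1030 probe sets (3.78%) and the second 0 (0%), by limma, with 2790 at an unadjusted p below 0.05 in the second. Over the fits without 1 array, the first called from 452 (without atrial array 1 of E12.5) to 2014 (without atrial array 3 of E12.5). The set of genes called in the first reading, used below, thus depends on single atrial arrays of E12.5. The difference between the readings was called for 0 probe sets (0%; 2510 at an unadjusted p below 0.05). Of 592 genes called from E12.5 to E18.5 (4.56%), 533 (90.0%) had the same sign from E13.5 to E16.5, against 57.9% of all genes, and 217 (36.7%) had it at an unadjusted p below 0.05, against 10.4% of all genes at that p in either direction. The median size of those genes went from 0.87 in the first reading to 0.35 in the second. As the genes were chosen by their calls in the first reading, their sizes there are biased upward. The fall therefore cannot show that the interaction was smaller in the second reading. Sfrp1 was 1.78 ± 0.23 and 1.37 ± 0.23, Tgfbi 2.65 ± 0.41 and 1.92 ± 0.41, and Kcnip2 -2.49 ± 0.82 and -2.50 ± 0.82 in the 2 readings.

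**Figure D5:**
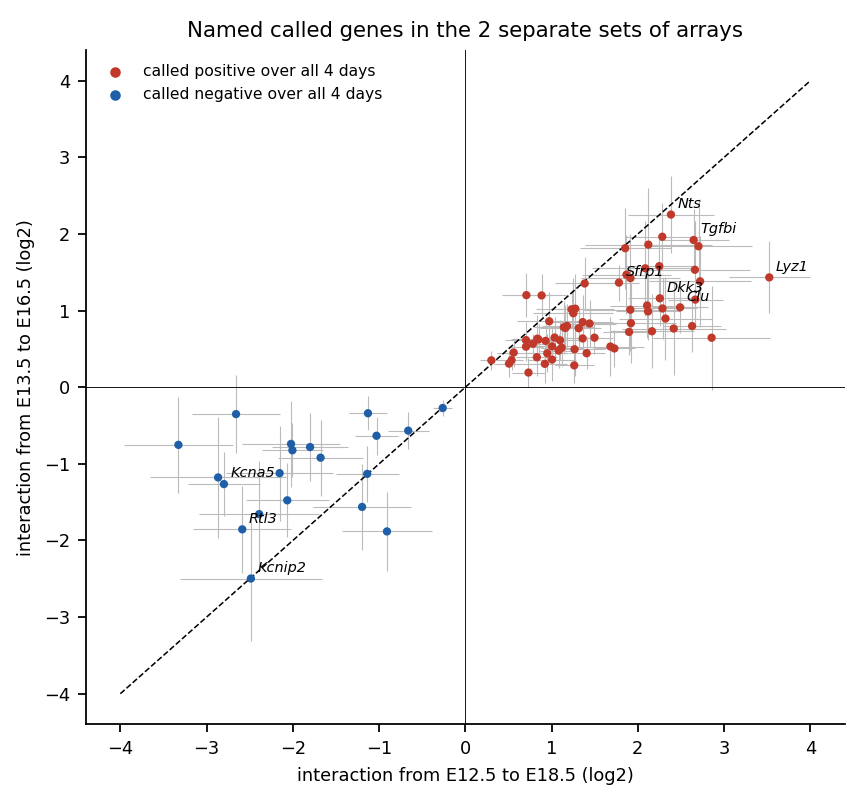
Interaction from E13.5 to E16.5 (log2, vertical) against the interaction from E12.5 to E18.5 (log2, horizontal) for the 88 named called genes, with bars of 1 standard error and the dashed line where both are equal; red is positive and blue negative over all 4 days. All points have the same sign on both axes, which the rule for the 15 largest genes in each direction required of those genes. The other genes were called from the arrays of both axes together, so their shared sign is not a separate check. Of all 658 genes called over the 4 days, 653 had the same sign in each interaction of an early with a late day. Most points lie nearer to 0 on the vertical axis.

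Day E14.5, which entered neither side, fell in between for most called genes. The difference of atrium and ventricle at E14.5 lay between its early and late values in 405 of 507 positive genes (79.9%) and in 97 of 151 negative genes (64.2%), against 33.2% of all genes, where the early and late values lie closer together. Over the positive genes the median difference was -0.01 early, 0.21 at E14.5 and 0.64 late. Over the negative genes it was 0.19, -0.07 and -0.46. The E14.5 difference was 2.37 ± 0.26 for Dkk3, between its early 1.80 and late 3.51, and 0.32 ± 0.17 for Sfrp1. For Tbx5 it was 1.04 ± 0.25, not in between but below both its early 1.44 and its late 2.55. The 3 atrial arrays of that day read 1281, 792.5 and 137.2 for Irx4 and 2016, 1162 and 268.2 for Hey2, and Irx4 on all 3 was above its level on 9 of the 12 atrial arrays of the other days; its part in the E14.5 values was not tested.

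Shares of promoter windows with short letter patterns were counted in called and in all genes. AGATAA, on either strand, was present in 6.76% of 13353 windows of genes tested, 7.69% of 533 windows of positive genes and 7.83% of 166 of negative genes. AGGTGT, the core of a T-box site, was in 11.1%, 9.94% and 12%, and AGGTCA, a nuclear receptor element, in 12.7%, 11.4% and 12.7%. TATAAA was in 8.2%, 11.1% and 8.43%, and CAGCTG, an E-box, in 15.7%, 20.1% and 19.3%. A MEF2 pattern, CTA and TAG with any 4 bases between, was in 3.28%, 2.44% and 4.82%. A gene can have several windows, and a match is a string of letters and not a measured site.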

How the data were processed

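Total RNA of mouse embryonic hearts was measured on 36 Affymetrix arrays, 12 groups of 3, of which 24 entered the interaction. The authors deposited linear intensities, 1 for each of 45101 probe sets and array. Their software and normalization: not given in the sources used here. A trimmed mean (2%) was near 500 on every array, so the deposited scaling was kept. The 64 control probe sets were left out. Of the others, 34945 had 1 gene symbol, 932 several and 9160 none. A pseudocount of 17 was added before log2, and 27256 probe sets above 171.8 on at least 3 arrays were tested. A gene was read by its annotated probe set of highest mean. R 4.3.3 with limma 3.58.1 fitted 12 group means with 24 residual degrees of freedom and an intensity trend, two-sided, with Benjamini-Hochberg adjustment over all tested probe sets; differences are log2(intensity + 17) with the standard error of the fit, which understates changes of low values. Correlations within groups were 0.941 to 0.984, and the number of arrays limits the precision. Code was tested on simulated data. Alternatives were other normalizations, pseudocounts, filters, weights and blocks, and leaving out arrays. The genes named were the 15 largest consistent calls in each direction, up to 4 called members of each of 40 lists (724 of 772 members on the array), and 21 set chamber genes. The genes, lists and comparison were chosen with earlier results of these data known. Promoter sequences are from RefSeq on GRCm38.p6, for 82 of the named genes.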

Additional observations from a re-analysis of the deposited data

Results flagged for a closer look

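The change over the days differed between the chambers, by the test of the difference itself, for 1130 probe sets. Among the named genes, the chambers' own changes both passed the threshold and ran in opposite directions for 14, whose interactions (log2) follow. Those higher in atrium at the end were Lyz1 (2.48), Tgfbi (2.28), Krt19 (2.12), Slc24a4 (1.91), Ccl2 (1.83), Clu (1.77), Lyz2 (1.66), Kit (1.12), Tbx5 (1.11), Fbln1 (0.77), Col5a2 (0.74) and Nfatc1 (0.62), and each of these rose in atrium and fell in ventricle. Kcna5 (-2.03) and Aldh1a2 (-0.83) fell in atrium and rose in ventricle. Each chamber and day has 3 arrays, and no test for a single outlying value was made within them.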

How the results depend on the processing

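The interaction called 1130 probe sets (803 positive and 327 negative). This became 688 (534 and 154) with 4 group means over 24 arrays, 3683 (2093 and 1590) with array weights, 681 (483 and 198) with the mean of each gene's probe sets, 0, 0 and 0 with E13.5 and E16.5 alone, 688 (500 and 188) without the Sftpc set, 1388 (952 and 436) without the Irx4 set and 494 (341 and 153) without the erythroid set. Negative calls were 135 with median centring and 171 without the Alb set. Whether atrial and ventricular arrays of the same day and number share embryos is not known from the titles. Their residuals correlated at -0.335 to 0.159, which cannot settle it, as residuals of the 3 arrays of a group sum to 0. A block on day and number left 358 calls (287 and 71) and kept 31.5% of the main calls. A replicate block over all arrays left 1081. With the day and number block, positive members went from 8 to 2 for epicardial, 6 to 1 for elastic fibre and 8 to 5 for atrial genes. Macrophage and mast cell genes each kept 2. The change in atrium (6249) became 3634 with probe-set means and 2209 without the erythroid set, and that in ventricle (8347) 4457 with probe-set means. The early difference (5750) became 8765 with weights, 3258 with means and 3787 without the erythroid set, and the late one (8602) 4707 with means. From E12.5 to E18.5, 1030 calls became 425 with median centring, 4733 with weights, 242 with the day and number block, 621 with means, 490 without the Sftpc set and 113 without the erythroid set. From E13.5 to E16.5, 0 calls (2790 at an unadjusted p below 0.05, limma) became 6 with a pseudocount of 1, 1 with no filter, 4 with the stricter filter, 9 with 24 arrays, 38 with weights, 2 with the replicate block, and 2, 1 and 8 without the Sftpc, Irx4 and erythroid sets. Over the 24 fits without 1 array, the interaction ranged from 720 (without ventricular array 2 of E13.5) to 1903 (without atrial array 3 of E12.5), positive calls 543 to 1241, negative calls 177 to 662, the atrial change 4804 to 7045, the ventricular 6567 to 8769, the early difference 4821 to 5946, the late 7348 to 9036, E12.5 to E18.5 452 to 2014 and E13.5 to E16.5 0 to 21. Signs turned for uncalled genes alone: Myl2 (0.21 with E13.5 and E16.5 alone, 0.45 without the Sftpc set, 0.37 without the erythroid set, and from -1.0 to 0.20 over the fits without 1 array), Irx4 (-0.83 with weights, and from -0.031 to 1.14 over the fits without 1 array), and with E13.5 and E16.5 alone Tnni3 (0.045) and Shox2 (0.16). The causes were not tested. With 3 arrays a group, no detection call, and values near the top of the range for Nppa, Myl7 and Hbb-y, small differences and changes of very low or very high genes are the least certain.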
